A study of Mus musculus with 6 samples.

Results

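Chromosome 19 is a small, gene-dense mouse chromosome, and its accessible regions were taken as all ATAC-seq peaks that lay on it in either of 2 peak lists, 1 for each genotype. It held 6324 of the 204204 peaks listed genome-wide, namely 2788 of 98072 peaks of the Lap2alpha knockout (KO) and 3536 of 106132 peaks of the wild type (WT). The chromosome was selected on its numbers of KO and WT peaks, so these and every comparison of its peaks between genotypes are given as descriptions, with no test.

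The KO list came from mouse dermal fibroblasts lacking Lap2alpha (3 libraries), and the WT list from dermal fibroblasts of wild-type genotype (3 libraries). Both were grown in DMEM with fetal calf serum and antibiotics, and no label says whether the 3 libraries of a genotype were separate animals, lines or cultures. Each deposited list covers the libraries of 1 genotype together, so each value below is a single value per genotype with no replicate spread, and the sequencing depth behind it is unknown. Confidence intervals are 95% exact binomial intervals and cover counting error only.

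Lap2alpha is a splice form of lamina-associated polypeptide 2, encoded by Tmpo. Unlike the membrane-bound forms it has no transmembrane domain, is spread through the nucleoplasm and binds A-type lamins there. ATAC-seq uses the Tn5 transposase, which inserts sequencing adapters where DNA is free of nucleosomes, so its peaks mark active promoters, enhancers and other exposed DNA. In dermal fibroblasts such sites are known to lie at genes for matrix, cytoskeleton and growth factor signalling. As a check of the cell type, 12 of 14 dermal fibroblast marker genes, Col1a1 and Pdgfra among them, had a peak at the gene start in both lists, at signal percentiles of 51.1 to 99.9 in KO and 71.1 to 99.8 in WT. Start peaks were found at 0 of 5 keratinocyte markers in either list, at 1 of 5 leukocyte markers in KO and 0 in WT, at 2 of 4 endothelial, 3 of 5 Schwann cell and melanocyte and 0 of 4 muscle markers in each list, and at 1 of 4 adipocyte markers in KO and 2 in WT.

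The promoters printed here stand for the patterns described below. All are 300-base windows from RefSeq on GRCm38.p6, running from 250 bases before to 50 bases after an annotated start, with CpG dinucleotides in capitals. Loxl4, a lysyl oxidase family gene whose enzymes crosslink matrix proteins, had the strongest WT-only peak of the chromosome over its promoter (minus strand, chr19:42612757-42613056). Il33, the gene of an alarmin cytokine of the interleukin-1 family, had WT-only peaks at both its annotated starts, and the window of the start with the stronger peak is shown (plus strand, chr19:29945540-29945839). Rorb, an orphan nuclear receptor gene, also had a start peak in WT only (minus strand, chr19:19111147-19111446). Tcf7l2, the gene of a transcription factor of the Wnt pathway, had a peak there in both lists but 12 WT-only peaks elsewhere (plus strand, chr19:55741560-55741859). Acta2, the gene of smooth muscle actin and a myofibroblast marker, had a peak in both lists (minus strand, chr19:34255324-34255623). The predicted gene Gm41835 held the one promoter window of the chromosome with a KO-only peak (minus strand, chr19:33074951-33075250).
Loxl4: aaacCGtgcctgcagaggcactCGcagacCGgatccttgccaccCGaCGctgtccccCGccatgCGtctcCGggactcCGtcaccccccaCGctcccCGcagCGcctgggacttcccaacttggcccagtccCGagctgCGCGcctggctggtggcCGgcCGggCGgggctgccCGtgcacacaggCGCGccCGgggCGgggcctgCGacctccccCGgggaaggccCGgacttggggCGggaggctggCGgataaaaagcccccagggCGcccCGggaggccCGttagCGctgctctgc
Il33: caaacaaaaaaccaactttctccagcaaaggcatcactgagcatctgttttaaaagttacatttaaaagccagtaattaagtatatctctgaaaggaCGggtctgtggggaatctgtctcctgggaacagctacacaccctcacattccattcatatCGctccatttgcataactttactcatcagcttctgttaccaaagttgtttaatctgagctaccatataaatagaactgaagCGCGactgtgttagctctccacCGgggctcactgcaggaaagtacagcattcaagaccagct
Rorb: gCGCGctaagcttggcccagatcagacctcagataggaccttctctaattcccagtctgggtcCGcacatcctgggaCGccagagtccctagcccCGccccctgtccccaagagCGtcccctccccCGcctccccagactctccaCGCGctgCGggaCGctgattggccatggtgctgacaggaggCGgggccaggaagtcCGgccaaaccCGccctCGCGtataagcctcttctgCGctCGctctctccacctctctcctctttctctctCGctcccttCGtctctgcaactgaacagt
Tcf7l2: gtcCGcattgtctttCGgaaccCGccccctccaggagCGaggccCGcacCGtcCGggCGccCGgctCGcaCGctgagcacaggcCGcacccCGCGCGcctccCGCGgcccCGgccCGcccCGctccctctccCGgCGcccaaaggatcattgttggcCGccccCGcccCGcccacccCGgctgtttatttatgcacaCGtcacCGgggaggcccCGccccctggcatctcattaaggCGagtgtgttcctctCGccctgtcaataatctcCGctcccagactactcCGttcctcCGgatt
Acta2: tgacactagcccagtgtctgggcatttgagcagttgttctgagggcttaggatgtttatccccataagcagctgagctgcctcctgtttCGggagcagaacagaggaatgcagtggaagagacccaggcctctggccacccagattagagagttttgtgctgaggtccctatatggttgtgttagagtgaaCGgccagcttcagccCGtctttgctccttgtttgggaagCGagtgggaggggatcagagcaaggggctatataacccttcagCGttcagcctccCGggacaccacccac
Gm41835: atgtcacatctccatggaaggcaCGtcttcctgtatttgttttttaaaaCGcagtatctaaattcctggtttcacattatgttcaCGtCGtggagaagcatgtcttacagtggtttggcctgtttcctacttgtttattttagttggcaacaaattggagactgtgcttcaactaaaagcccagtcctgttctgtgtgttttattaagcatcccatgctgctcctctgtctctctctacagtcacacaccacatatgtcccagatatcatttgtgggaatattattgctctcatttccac

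The Loxl4 window holds 32 CpG dinucleotides, the Rorb window 20 and the Tcf7l2 window 34, while the Il33 window holds 5, the Acta2 window 6 and the Gm41835 window 4, so that windows with a WT-only peak and windows with a peak in both lists each include high and low values. RefSeq listed 1044 such windows for 863 genes of chromosome 19. The 29 windows with a WT-only peak had a median of 5 CpG dinucleotides and 52.7% G and C, against 22 and 62.0% in the 491 windows with a peak in both lists and 3 and 47.0% in the 510 with no peak. On the other chromosomes the medians were 6 CpG for 413 windows with a WT-only peak and 21 for 12327 with a peak in both lists. The AP-1 motif TGANTCA, searched on both strands, was present in 3 of the 29 WT-only windows (10.3%), and in 7.47% of all windows on the chromosome and 7.81% of all 32851 windows genome-wide. The TEAD motif GGAATG, also on both strands, was likewise in 3 of the 29 (10.3%), in 13.3% of windows on the chromosome and in 14.7% genome-wide. The Il33 and Acta2 windows above each hold a match to GGAATG, on either strand, and these matches describe letters, not bound sites.

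Chromosome 19 had fewer peaks in KO, and by an overlap of at least 1 bp most KO peaks lay at sites also listed in WT. KO peaks numbered 78.8% of WT peaks, against 92.9% on the other 19 chromosomes compared, a log2 ratio relative to them of -0.24 (-0.31 to -0.16 from counting error). A KO peak that overlapped no WT peak by at least 1 bp is called KO-only, and a WT peak with no KO overlap WT-only. KO-only peaks numbered 158 of 2788 and WT-only peaks 1065 of 3536, with genome-wide shares of 13.4% KO-only and 20.4% WT-only. Thus 94.3% of KO peaks (93.4 to 95.2%) and 69.9% of WT peaks (68.3 to 71.4%) were shared, against 86.3% of KO and 79.9% of WT peaks on the other chromosomes. With a reciprocal overlap of 50% the shares were lower, 69.8% of KO and 55.0% of WT peaks, with 842 KO-only and 1590 WT-only. Covered DNA came to 2.05 Mb in KO and 2.87 Mb in WT. Measured by covered length, the relative log2 ratio was -0.42, the lowest of the 20 chromosomes; by peak number chromosome X, at -0.32, was lower.

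Shared sites also had lower ranks and narrower peaks in KO. To compare signals without an effect of list length, KO and WT peaks that overlapped each other and nothing else were paired, which gave 75794 pairs genome-wide and 2247 on chromosome 19, and each peak was ranked by signal among the pairs of its own list. The median pair percentile on chromosome 19 was 47.4 in KO and 60.6 in WT, and the median difference within pairs, KO minus WT, was -8.12 percentile points with quartiles of -18.8 and -0.87. Of the 2247 pairs, 1775 (79.0%) ranked lower in KO, against 49.6% of pairs genome-wide. In 1009 pairs (44.9%) the KO percentile was lower by at least 10 points, and in 161 (7.17%) higher by at least 10 points, where the genome-wide shares were 18.8% and 18.8%. Median width was 503 bp in KO and 695 bp in WT, against 525 bp in KO and 536 bp in WT for pairs on the other chromosomes. The signal grows with a peak's length (Spearman's rho across peaks 0.91 in KO and 0.90 in WT), so width and rank are not separate measures. Ranked by signal per base instead, the median difference was -6.07 points, and ranked by the −log10 p of the summit it was -10.3 points.

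**Figure D1:**
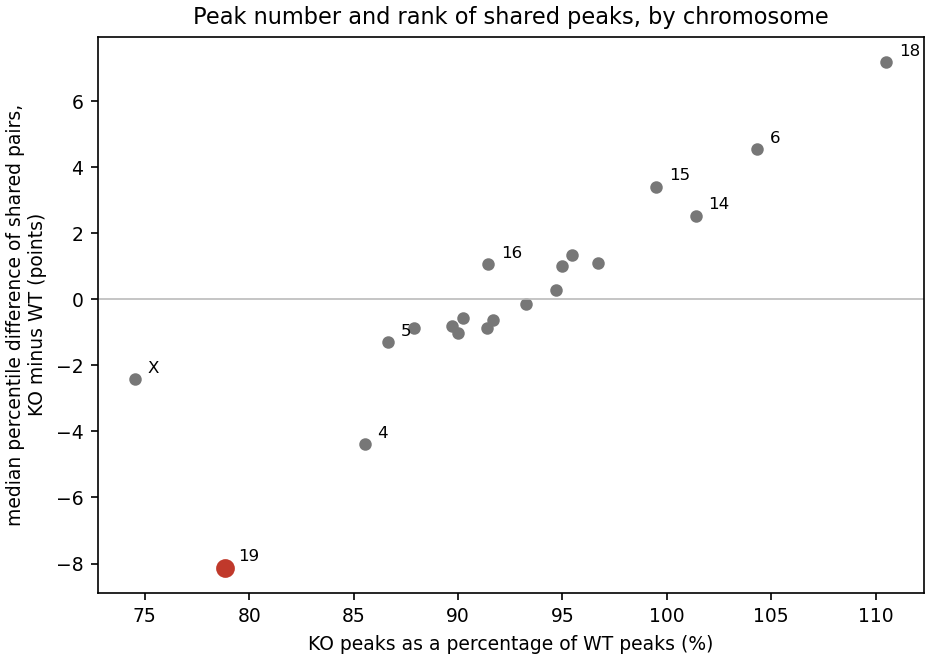
Each point is 1 chromosome, placed by KO peaks as a percentage of WT peaks (x axis) and by the median percentile difference of its shared pairs, KO minus WT, in points (y axis). Chromosome 19 (large point) is at 78.8% and -8.12 points, lower on the y axis than the other chromosomes shown, and chromosomes in the crowded middle are not labelled.

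Among the other chromosomes the lowest median pair difference was -4.37 points on chromosome 4, with -2.43 on chromosome X and 7.18 at the upper end on chromosome 18. The KO and WT summits of chromosome 19 pairs lay within 50 bp of each other in 80.0%, and on the same base in 8.14%. Some peaks were divided in one list and whole in the other: 169 WT peaks (4.78%) each overlapped several KO peaks, against 2.96% on the other chromosomes, while 31 KO peaks (1.11%) overlapped several WT peaks, against 2.92% on the others. Peaks longer than 3 kb numbered 30 of 2788 in KO and 95 of 3536 in WT. On the other chromosomes they numbered 668 of 95229 in KO and 873 of 102536 in WT.

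The lower KO values did not begin at the start of the chromosome. In the first 6 Mb, a boundary chosen after the values were seen, KO had 426 and WT 431 peaks, with 43 KO-only and 53 WT-only. The 332 pairs there had a median difference of 0.57 points, and 40.7% ranked lower in KO. From 6 to 22 Mb there were 704 KO and 861 WT peaks, 31 of them KO-only and 222 WT-only, and the 581 pairs had a median difference of -5.06 points. Beyond 22 Mb there were 1658 KO and 2244 WT peaks, with 84 KO-only and 790 WT-only, and the 1334 pairs had a median difference of -13.3 points with 88.5% lower in KO. Without the first 6 Mb the chromosome's median pair difference was -10.5 points.

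The first block had 250 KO and 247 WT peaks, the second, where Ahnak lies, 439 and 501, and the third, with the endocannabinoid enzyme gene Dagla, 184 and 227. KO peaks were 101.2%, 87.6% and 81.1% of WT in these blocks. In blocks 4 and 5, which hold the G protein gene Gna14 and the cell-surface hyaluronidase gene Cemip2, the percentages were 78.8% and 79.8%. From block 6, with the zinc-finger transcription factor gene Glis3, to the last they ran between 68.5% (block 8, with the mRNA-binding protein gene Cpeb3) and 81.7% (block 10, with the podosome scaffold gene Sh3pxd2a). Median pair differences were 0.91, -2.64, -6.36, -3.65 and -6.51 points in blocks 1 to 5, and between -15.7 and -9.97 points in blocks 6 to 13. In 12 of the 13 blocks the KO-to-WT ratio was below that of the other chromosomes, against 55% of 524 blocks genome-wide. At 1 Mb resolution, KO had fewer peaks than WT in 48 of 54 windows with at least 20 peaks, more in 6, and no KO-only peak in 16.

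**Figure D2:**
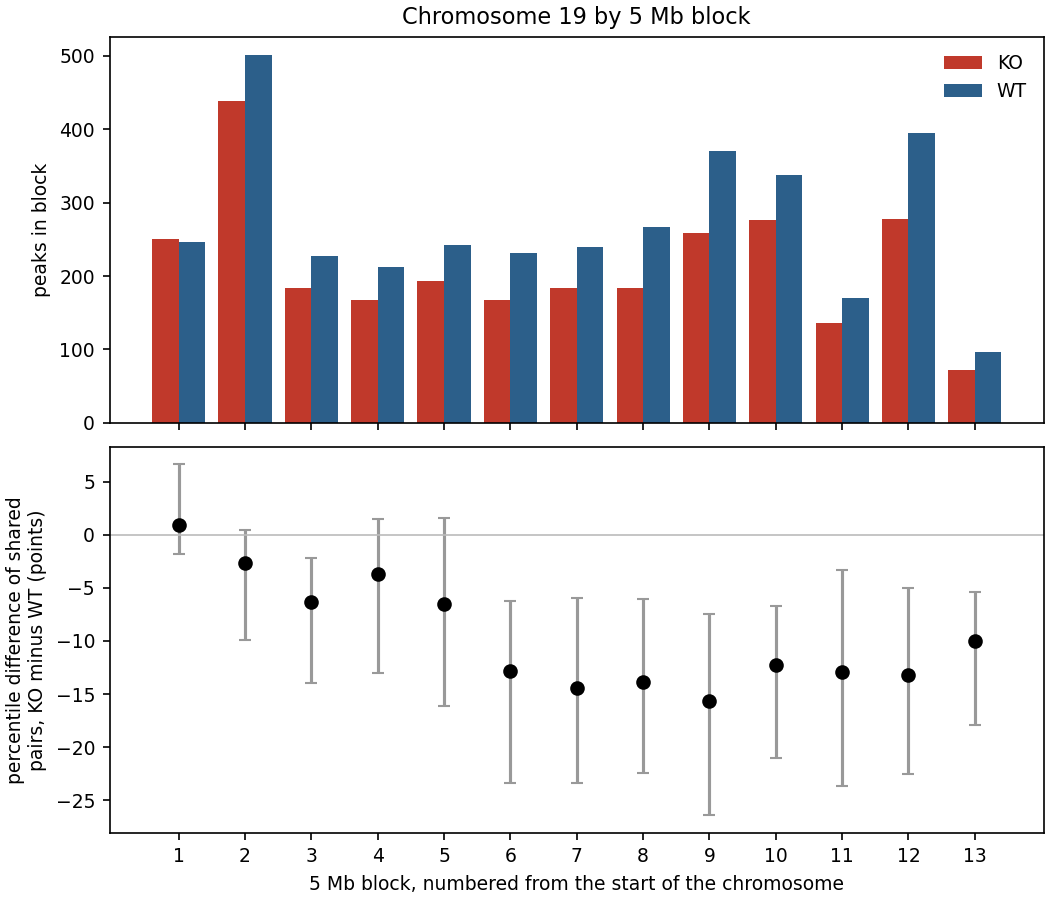
Upper panel: peaks per 5 Mb block of chromosome 19 in KO (left bars) and WT (right bars). Lower panel: median percentile difference of shared pairs, KO minus WT, in points, with bars from the lower to the upper quartile; the median is 0.91 in block 1 and at most -9.97 from block 6 on.

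Peaks listed in 1 genotype only were weak ones. KO-only peaks had a median signal percentile of 14.3 and a median width of 246 bp, and WT-only peaks of 20.01 and 257 bp, each in its own list. Shared peaks had medians of 53.3 and 523.5 bp in KO and 68.9 and 747 bp in WT. Above percentile 90 there was 1 KO-only and 1 WT-only peak, and above percentile 50 there were 13 of 158 KO-only and 116 of 1065 WT-only. Peaks listed in 1 genotype only were weak on the other chromosomes too, with median percentiles of 16.5 for KO-only and 17.7 for WT-only. Above percentile 50 lay 1168 of 13004 KO-only and 1735 of 20620 WT-only peaks there. By signal decile, the share of KO peaks with a WT overlap was 76.5% in the weakest and 97.0% in the fifth, against 55.1% and 91.1% on the other chromosomes. The share of WT peaks with a KO overlap was 17.4% in the weakest decile and 72.2% in the fifth, against 38.2% and 84.5% on the other chromosomes. In the top decile both lists were shared at 99.7% or more on chromosome 19. That top decile took in 343 KO peaks (12.3% of the chromosome's KO peaks) and 559 WT peaks (15.8%).

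**Figure D3:**
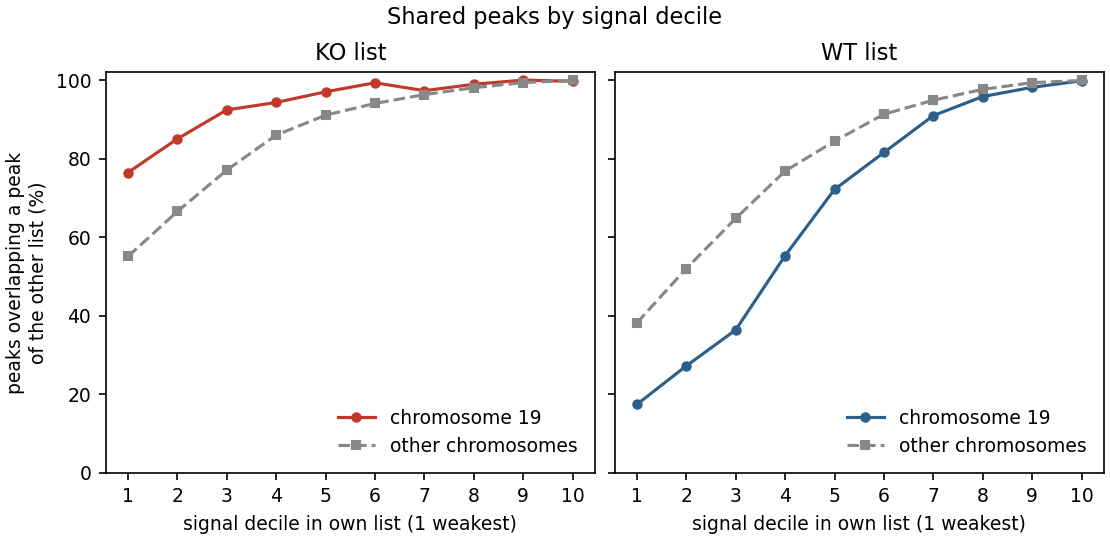
Share of peaks (%) that overlap a peak of the other list, by signal decile within the own list, for the KO list (left) and the WT list (right). Solid lines are chromosome 19 and dashed lines the other chromosomes; in the weakest decile chromosome 19 is at 76.5% in KO, above the 55.1% elsewhere, and at 17.4% in WT, below the 38.2% elsewhere.

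By the position of its summit, a peak was placed at a gene start (within 1 kb of an annotated start of a protein-coding gene), in a gene body or between genes. Of KO-only peaks 5 (3.16%) were at starts, 49.4% lay in gene bodies and 47.5% between genes. Of WT-only peaks 47 (4.41%) were at starts, 52.8% lay in gene bodies and 42.8% between genes. The shares at starts were close to those on the other chromosomes, 3.25% of KO-only and 4.62% of WT-only peaks. Shared peaks were at starts in 17.3% of KO and 16.3% of WT. Outside gene bodies and more than 100 kb from any gene start lay 32 peaks listed in KO alone (20.3%, 14.3 to 27.4%). In WT alone there were 63 such peaks (5.92%, 4.58 to 7.51%). On the other chromosomes these shares were 17.2% of KO-only and 18.3% of WT-only peaks. Among pairs, those at starts had a median difference of -4.41 points (327 pairs, 85.9% lower in KO), those in gene bodies -9.46 (1068 pairs) and those between genes -9.02 (852 pairs). On the other chromosomes the medians were -0.43, 0.91 and 0.22 points for the same 3 classes. Start pairs of chromosome 19 lay near the top of the scale, at medians of 88.9 in KO and 94.6 in WT, where differences in points are compressed. By the −log10 p of the summit their median difference was -1.54, against -1.55 in gene bodies and -1.56 between genes. Their median width difference was -244 bp, against -124.5 bp in gene bodies and -122 bp between genes.

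For single genes, a start peak is any peak that reached within 1 kb of an annotated start, wherever its summit lay. Of 705 protein-coding genes, 435 had a start peak in both lists, 3 in KO only, 24 in WT only and 243 in neither. These are 0.43% in KO only and 3.40% in WT only, where the genome-wide shares are 1.08% and 2.01%. The KO-only starts were those of Trpm3, a cation channel gene, at percentile 29.1, Cd6, a lymphocyte receptor gene, at 1.30, and Ctsw, a cathepsin gene, at 50.9, the last at the edge of a peak that overlaps a WT peak. Of the 24 WT-only starts, 23 had a peak that overlapped no KO peak. The exception was Tmem223, at the edge of a shared peak at WT percentile 98.4. Among the genes reported here, after Loxl4, at WT percentile 93.5 with its summit 348 bp from the start, came Borcs7, a lysosome-positioning subunit gene, at 75.4, then the lipase gene Lipn at 65.9, Il33 at 65.6 and the calcium homeostasis modulator gene Calhm2 at 63.9. Cd5, a lymphocyte receptor gene, was at 55.0, the neuronal secreted protein gene Lgi1 at 54.6, Csf2ra, a subunit gene of the GM-CSF receptor, at 53.2, the tolloid-like protease gene Tll2 at 49.1 and Rorb at 46.2. The prostaglandin D2 receptor gene Ptgdr2 and Mfsd13a were lower, at 26.3 and 29.8. Cd5 and Csf2ra are leukocyte genes and Lgi1 a neuronal one; of the 7 leukocyte markers on the chromosome 1 had a start peak in both lists, 1 in KO only and 2 in WT only.

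Gene-start pairs could be followed for 356 genes, which share 319 distinct pairs. Each gene was given the pair at its start with the highest summed percentile. In the first 6 Mb 45 of 91 genes ranked lower in KO, with a median difference of 0.0066 points. Beyond 6 Mb the count was 260 of 265, with median percentiles of 90.03 in KO and 96.1 in WT. The 5 genes there that ranked higher in KO, named after their values were seen, were Habp2, a plasma serine protease gene (85.2 in KO, 56.9 in WT), Foxb2, a forkhead factor gene (5.09 in KO, 1.74 in WT), Vldlr, a lipoprotein receptor gene (15.04 in KO, 12.5 in WT), Prune2 (97.9 in KO, 95.8 in WT) and Rab3il1, an exchange factor gene for Rab GTPases (97.9 in KO, 95.2 in WT). Pairs with a summit at a gene start on the other chromosomes ranked lower in KO in 57.9%.

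**Figure D4:**
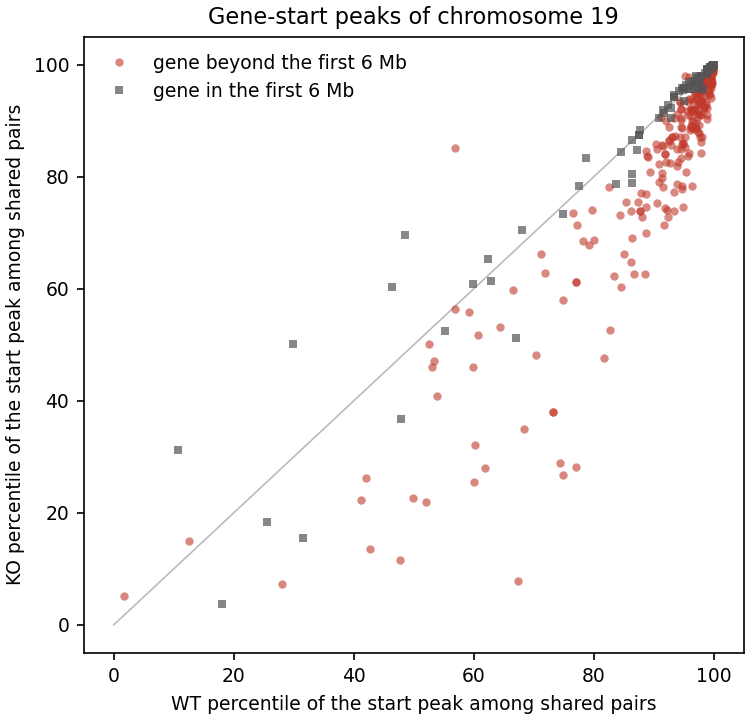
Percentile of each gene's start peak among shared pairs in KO (y axis) and in WT (x axis) for 356 genes of chromosome 19; the line marks equal percentiles. Squares, genes in the first 6 Mb, scatter on both sides of the line (45 of 91 below it), and circles, genes beyond it, lie below it in 260 of 265 cases.

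Gene lists fitting fibroblasts and the chromosome's gene families are described next by their counts. Over all peaks of the chromosome 5.67% were KO-only and 30.1% WT-only, and the lists' shares are given beside their counts. The members given as examples outside the naming rule were chosen after their values were seen. Matrix, cytoskeleton and contractile genes kept their start peaks with few exceptions. Of 24 such genes 17 had a start peak in both lists, 2 in WT only, Loxl4 among them, and 5 in neither. The peaks assigned to them by position included 10 of 232 KO peaks (4.31%) listed in KO alone and 93 of 300 WT peaks (31.0%) in WT alone, close to the shares over the chromosome, and 12 of 14 genes with a start pair ranked lower in KO, where 305 of all 356 did. Pdlim1, which encodes an actin-associated LIM protein, stood at pair percentile 62.6 in KO and 88.6 in WT, with peaks of 895 bp in KO and 1532 bp in WT. Ankrd1, a gene responsive to mechanical stress in muscle and fibroblasts, stood at 96.4 in KO and 99.4 in WT, and the membrane repair gene Myof at 94.9 in KO and 99.1 in WT. The Acta2 start peak was at percentile 90.2 of the KO list and 97.5 of the WT list, 1710 bp wide in KO and 2284 bp in WT. Among genes counted in the first 6 Mb, Cd248, the endosialin gene of stromal cells, was close, at 99.6 in KO and 99.4 in WT. Efemp2, Cfl1 and Ltbp3 were close too. Capn1, also counted there though it spans the 6 Mb boundary, was not, at pair percentile 15.5 in KO and 31.6 in WT.

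Ahnak, which encodes a very large scaffold protein below the plasma membrane, had 16 KO and 28 WT peaks, 1 of them KO-only and 14 WT-only, a WT excess of 13 that was 7 in the upper 50% by signal. Its start peak was shared, at pair percentile 98.4 in KO and 99.6 in WT. Inside the gene, 8 WT peaks in a row over 14.5 kb, from 9004029 to 9018528, had no KO overlap. The strongest of these, 3333 bp wide from 9007263 to 9010595, was at WT percentile 85.6 but had a summit −log10 p of only 8.26, and those at 9016012 to 9018528 and 9010715 to 9013979 were at 84.8 and 84.2. The median summit −log10 p of shared WT peaks on the chromosome was 12.7. Next to them KO peaks at 9019712 to 9020449 and 9020574 to 9021190, at percentiles 36.3 and 32.8, lay under 1 WT peak from 9019149 to 9021352 at 88.9.

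**Figure D5:**
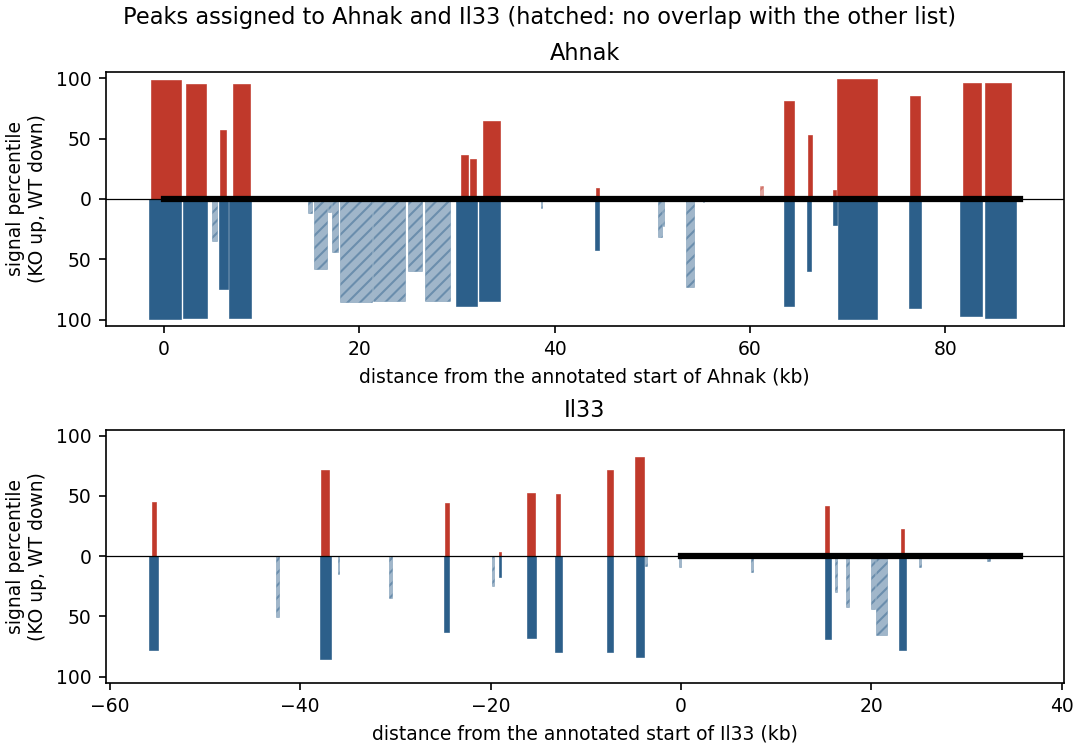
Peaks assigned to Ahnak (upper panel) and Il33 (lower panel) by distance in kb from the annotated start, with bar height as signal percentile in the own list, KO upward and WT downward; the thick line is the gene and hatched bars have no overlap in the other list. Ahnak shows a run of 8 WT-only peaks over 14.5 kb inside the gene, and Il33 has 13 WT-only peaks, those at its starts among them, and no KO-only peak.

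Genes of NF-kB, cytokine, interferon and death receptor signalling had the widest gaps among the lists with 10 or more start pairs. Of 16 genes 13 had a start peak in both lists, Il33 in WT only and 2 in neither. KO-only were 1 of 61 KO peaks (1.64%) and WT-only 35 of 91 WT peaks (38.5%). All 10 with a start pair ranked lower in KO, with medians of 78.4 in KO and 94.6 in WT and a median difference of -14.8 points, against -3.26 over the 356 genes. Fas, the death receptor gene, stood at 64.8 in KO and 86.2 in WT, with peaks of 640 bp in KO and 1639 bp in WT. Cd274, which encodes PD-L1, stood at 47.7 in KO and 81.7 in WT. The interferon-induced genes Ifit1 and Ifit3 stood at 38.0 and 78.4 in KO and at 73.1 and 94.7 in WT. Ifit2, of the same family, had a smaller gap, at 94.6 in KO and 99.3 in WT. The NF-kB subunit gene Nfkb2 was close at 98.9 in KO and 99.7 in WT. Of these 10 genes, 9 lie beyond 22 Mb, and the exception, Rin1, was at 99.3 in KO and 99.4 in WT. Beyond 22 Mb the median difference over all 155 genes with a start pair was -8.15 points. Of all WT peaks there, 790 of 2244 were WT-only. Whether the gaps of this list go beyond those of its position was not tested.

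At Il33 the KO list held 10 peaks and the WT list 23, with 0 KO-only and 13 WT-only, a WT excess that was 6 in the upper 50% by signal. The WT peak at the downstream start ran from 29945606 to 29946744 at percentile 65.6, and that at the upstream start from 29924887 to 29925158 at 8.66. No KO peak reached within 1 kb of either. All 10 KO peaks lay at sites with a WT peak, the strongest at 29920282 to 29921230, ahead of the gene, at percentile 82.0 in KO and 83.9 in WT.

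Wnt, growth factor and phosphoinositide signalling genes had start peaks in both lists for 16 of 21 and in neither for 5. KO-only were 9 of their 203 KO peaks (4.43%) and WT-only 80 of their 266 WT peaks (30.1%), close to the shares over the chromosome. All 13 start pairs ranked lower in KO. Tcf7l2 had 25 KO and 33 WT peaks, 0 KO-only and 12 WT-only, and a start pair at 87.1 in KO and 94.3 in WT. With peaks assigned by gene body the WT excess at Tcf7l2 was 7. Sufu, a Hedgehog pathway inhibitor gene, stood at 99.4 in KO and 99.8 in WT, and the corepressor gene Tle4 at 98.5 in KO and 99.0 in WT. Adrb1, which encodes the beta-1 adrenergic receptor, stood at 28.0 in KO and 61.8 in WT and had 0 KO-only and 8 WT-only peaks by the nearest-gene rule, none of them within the gene itself, with an excess of 3 in the upper 50% by signal. Gfra1, a GDNF co-receptor gene, had 10 KO and 18 WT peaks, 0 KO-only and 8 WT-only.

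Among 18 transcription factor genes 10 had a start peak in both lists, Rorb in WT only and 7 in neither. KO-only were 9 of 151 KO peaks (5.96%) and WT-only 66 of 191 WT peaks (34.6%), and 7 of 7 start pairs ranked lower in KO. Glis3 had 31 KO and 37 WT peaks, 3 KO-only and 11 WT-only, and a start pair at 96.6 in KO and 99.8 in WT. Rorb had 11 KO and 21 WT peaks, 1 KO-only and 11 WT-only, an excess of 10 in WT that was 1 among peaks in the upper 50% by signal. Pitx3, a homeobox gene of lens and midbrain, stood at 35.0 in KO and 68.5 in WT. Mxi1, which encodes a Max partner that opposes Myc, stood at 82.7 in KO and 94.0 in WT.

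Not every gene on the list named for chromatin, replication and mitosis has such a role. All 20 members had start peaks in both lists, with 4 of 79 KO peaks around them KO-only (5.06%) and 20 of 92 WT peaks WT-only (21.7%). Start pairs ranked lower in KO at 13 of 16. The 3 others, Kdm2a, Banf1 and Rnaseh2c, all lie in the first 6 Mb; Kdm2a, a histone demethylase gene, stood at 95.9 in KO and 94.7 in WT. Smc3, a cohesin subunit gene, stood at 94.4 in KO and 97.7 in WT, and Kif11, a mitotic kinesin gene, at 94.5 in KO and 98.4 in WT. Lipid and retinoid metabolism genes had start peaks in both lists at 14 of 20 and in neither at 6, and 11 of 12 start pairs were lower in KO, with 1 of 94 KO peaks listed in KO alone (1.06%) and 50 of 137 WT peaks in WT alone (36.5%). Gpam, which encodes the first enzyme of glycerolipid synthesis, stood at 62.7 in KO and 86.7 in WT, and the desaturase gene Scd1 at 97.7 in KO and 99.5 in WT. Aldh1a1, a retinaldehyde dehydrogenase gene, had 12 KO and 18 WT peaks, 0 KO-only and 8 WT-only. With peaks assigned by gene body its WT excess was 2.

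The tandem families of the chromosome were mostly closed in both lists. Of 63 olfactory receptor genes 62 had no start peak, of 21 Ms4a genes 19, of 15 Cyp2c genes 14 and of 10 Slc22a genes all 10. Cyp2c29, a cytochrome P450 gene, held a WT-only peak in its body from 39291710 to 39292756 at percentile 79.2. Of 8 long noncoding and highly expressed genes, Malat1 and the ferritin gene Fth1 among them, all 8 had a start peak in both lists, with 0 of 20 KO peaks KO-only and 3 of 21 WT peaks WT-only. Muscle markers had 0 of 19 KO peaks KO-only and 13 of 32 WT peaks WT-only, with start peaks in both lists at 2 of 5 and in WT only at 1. Neuron markers with long gene bodies differed among themselves. Atrnl1, an attractin-like receptor gene, had the largest WT excess, with 30 KO and 43 WT peaks, 0 KO-only and 16 WT-only. Sorcs1, a sorting receptor gene, had 3 KO and 10 WT peaks, 0 KO-only and 7 WT-only. Its relative Sorcs3 had the largest KO excess, with 12 KO and 7 WT peaks, 5 KO-only and 0 WT-only, but in the upper 50% by signal the direction reversed to 1 more WT-only peak.

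Counted over all genes of the chromosome, WT-only peaks outnumbered KO-only peaks at 340, KO-only peaks outnumbered WT-only peaks at 31 and both were equal above 0 at 15, among 583 genes with any peak. WT-only peaks were also the more numerous on the other chromosomes, 20620 against 13004 KO-only. These gene counts, and the runs below, have no counterpart here for those chromosomes. The WT excess at Sgms1, a sphingomyelin synthase gene, was 1 KO-only against 11 WT-only (a difference of 3 in the upper 50% by signal). At Rab11fip2, a recycling endosome gene, it was 0 against 8 (a difference of 4 with peaks assigned by gene body). Genes with a KO excess after Sorcs3 included the synaptotagmin gene Syt12 (4 KO-only, 0 WT-only), the pyruvate carboxylase gene Pcx (3 and 0) and the meiotic telomere gene Majin (3 and 0). In the upper 50% by signal the difference was 0 at Syt12 and Pcx, and at Majin it reversed to 1 more WT-only peak. Runs of 3 or more neighbouring peaks found in 1 list numbered 5 in KO, the longest of 4, and 89 in WT, the longest of 8. A run of 8 lay within 14.5 kb inside Ahnak. Another run of 8 was spread over 1297 kb, from 49019306, outside Sorcs1, to 50316086, inside it. In KO such runs lay near Ins1, Majin, Dmrt2 and Prkg1, and 1 had no gene assigned to it.

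The strongest KO-only peak ran from 52466597 to 52467996 at KO percentile 90.7, 202950 bp from the nearest gene start. The following 2, at 56028884 to 56029728 (73.3) and 54719313 to 54720048 (71.6), were also over 100 kb from a gene start. Prkg1, which encodes a cGMP-dependent kinase, held KO-only peaks at 30924000 to 30924580 (69.9) and 31497153 to 31497818 (61.6), and in all 6 KO-only and 12 WT-only peaks. Others lay 17870 bp from the start of Dmrt2, a doublesex-related factor gene (67.9), inside Glis3 (67.1) and inside Dock8, an exchange factor gene (61.2). Among WT-only peaks, strong ones besides those of Loxl4 and Ahnak were at Gcnt1, an O-glycan branching enzyme gene (17356028 to 17357208, 82.1), and 80749 bp from the start of Rab11fip2 (59862228 to 59863263, 79.9).

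The 5 shared peaks strongest in KO lay in the first 6 Mb or at transfer RNA genes. A single peak over Neat1, the long noncoding RNA of paraspeckles, and Frmd8 spanned 17500 bp in KO (5835203 to 5852702) and 19335 bp in WT (5833237 to 5852571), with its summit on the same base. Between Malat1 and Neat1, a KO peak from 5809377 to 5816897 spanned a site where WT had separate peaks of 4595 and 3358 bp. At Mus81, an endonuclease gene, and the cofilin gene Cfl1, the peak was 4916 bp wide in KO and 5035 bp in WT, at pair percentiles of 99.98 in each. Over a cluster of transfer RNA genes near Olfr1423, it was 4781 bp wide in KO (12008245 to 12013025) and 7906 bp in WT (12005187 to 12013092).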

How the data were processed

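Chromatin accessibility was measured by ATAC-seq in 3 KO and 3 WT libraries, and the authors deposited 1 peak list per genotype. Per the submitters' processing notes, they used Bowtie2 2.5.1, Genrich, deepTools 3.5.1 and build GRCm38. How Genrich was set, whether reads were shifted for Tn5 and how libraries were merged is not given in the sources used here. For each peak the authors deposited a signal and a −log10 p of its summit, used here to rank peaks within a list. Depth per library is unknown.

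Peaks on chromosomes 1 to 19 and X were compared by overlap of at least 1 bp in Python 3.11.15 with pandas 2.3.3, checked against bedtools 2.31.1 and tested on simulated lists. Gene starts were those listed by RefSeq (GRCm38.p6) for 593 genes, and both gene ends for 112 with none listed. A peak was assigned to the gene holding its summit, otherwise to the gene with the nearest start within 100 kb. Members and gene lists were chosen with earlier results of these data known. The naming rule took the 10 largest WT and 5 largest KO excesses of peaks, and the 5 shared peaks strongest in KO. It also took the 8 strongest KO-only and WT-only peaks more than 1 kb from the other list's peaks. Further names were start peaks in 1 list above percentile 25, the gene with most peaks per 5 Mb block, and list members with a start peak in 1 list. Some genes taken by this rule are not reported here. No p-value between genotypes was computed. Alternatives varied the overlap rule, thresholds, list length, start window, block size and assignment.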

Additional observations from a re-analysis of the deposited data

How the results depend on the processing

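No paired analysis was possible because each genotype has 1 combined peak list, and for the same reason no replicate could be left out. The direction of the chromosome's log2 ratio, of the median pair difference and of the excess of WT-only over KO-only peaks was the same under the alternatives run; the cause of the shifts below was not tested. With a reciprocal overlap of 50%, KO-only peaks numbered 842, shared KO peaks were 69.8%, shared WT peaks 55.0%, and peaks with a summit at a gene start made up 11.8% of KO-only and 5.91% of WT-only peaks. In the upper 50% by signal there were 73 KO-only and 616 WT-only peaks, 68.0% of WT peaks were shared and the log2 ratio was -0.32; there WT-only minus KO-only counts reversed to 1 at Sorcs3 and at Majin, against -5 and -3. Equal list lengths gave 619 WT-only peaks and 75.5% of WT peaks shared, and a common summit threshold 707 and 73.1%. Covered length gave a log2 ratio of -0.42, and leaving out 1 block at a time -0.27 to -0.22. In 10 Mb blocks 100% lay below the other chromosomes. Start windows of 500 bp and 2.5 kb put 2.72% and 13.99% of WT-only peaks at starts, and the wider window left 1 gene with a start peak in KO only. Assignment by gene body left 19 genes with a KO excess. Alternatives chosen after seeing the data were the other rank measures, pairs with reciprocal overlap (median difference -6.63 points), leaving out the first 6 Mb (log2 ratio -0.29), either gene end as start, and peaks with no overlap at all.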
